A study of Mus musculus with 20 samples.

Results

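The genes described here are enzymes of cholesterol synthesis and the transcription factor that drives them, in mouse liver tumors and control livers. They were taken by symbol from both tables of raw read counts, and all 7 (Hmgcs1, Mvd, Sqle, Lss, Cyp51, Dhcr7 and Srebf2) were found among 50559 gene rows. None of the 7 encodes a protein of LDL uptake, so they are called cholesterol synthesis genes. RNA sequencing was done on 20 libraries, 5 in each of 4 groups: livers, and tumors driven by MYC with Aldafermin, with FGF19 or with a guide against Trp53 (sgTrp53).

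All mice were wild-type C57BL/6J, and per the study's methods they were young adult females that were fasted for some hours before the liver was taken. Tumors were started by hydrodynamic gene transfer (HGT), a fast tail vein injection that carries plasmids into hepatocytes. MYC was under an EF1a promoter, was brought in with the Sleeping Beauty transposase SB100X and was shared by all tumor groups. It was combined with a plasmid for human FGF19, with one for Aldafermin, an engineered FGF19 analog, or with a CRISPR/Cas9 guide against Trp53. Only transfected hepatocytes carry these elements, and the tumors, snap frozen one by one, come from different mice. The labels call the livers healthy and non treated, while the methods describe controls that received a plasmid for red fluorescent protein. The time from injection to collection is not given per sample in the sources used here. The treatment label of the sgTrp53 + MYC tumors reads None, and their group was taken from the title.

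Cholesterol is built from acetyl-CoA in the cytosol and the endoplasmic reticulum. The mevalonate arm leads to farnesyl diphosphate and squalene, squalene is oxidised and cyclised to lanosterol, and a series of demethylations, isomerisations and reductions turns lanosterol into cholesterol. The pathway is controlled by SREBP-2, the product of Srebf2. When membranes hold little sterol, the escort protein SCAP carries SREBP-2 to the Golgi, where site-1 and site-2 proteases release its active part. INSIG proteins hold SCAP back when sterols are plentiful. The active part binds sterol regulatory elements in promoters, usually beside sites for NF-Y (CCAAT boxes) and Sp1 (GC boxes). In the liver the product serves membranes, lipoproteins and bile acids, and FGF19 is known as the gut hormone that represses bile acid synthesis.

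The promoters of the 7 genes were read from 250 bases before to 50 bases after the start of the canonical transcript in GRCm39, because these are the windows in which such sites are looked for. On both strands, the sterol regulatory element TCACNCCAC was present in 1 of the 7, that of Hmgcs1, against 1.33% of 21751 promoters. A CCAAT box was present in 5 of the 7 (Hmgcs1, Sqle, Lss, Cyp51 and Srebf2), against 39.9% of all promoters. The GC box GGGCGG was present in 6 of the 7, all but Dhcr7, against 42.5% of all promoters and 57.3% of those of 12379 genes tested here. The E-box CACGTG, a site of MYC and related factors, was present in 0 of the 7, against 7.81% of all promoters and 9.98% of those of the genes tested. Of the 12 other enzymes of the pathway 0 held the sterol regulatory element, 10 a CCAAT box, 9 a GC box and 2 the E-box. In these 7 promoters no match of a motif overlapped a match of another motif. A match is a string of letters and not a tested site, and its absence says only that the letters are not in this window. The 3 stretches below are shown to let the element and its surroundings be seen. The first lies at chr13:120151732-120151782, 250 to 200 bases before the canonical transcript start of Hmgcs1, with the sterol regulatory element in capitals. The other 2 lie at chr15:59186795-59186847, 87 to 35 bases before the canonical transcript start of Sqle, and at chr15:82031311-82031363, 71 to 19 bases before that of Srebf2. Both have the CCAAT box in capitals, which is read there as ATTGG on the strand of the gene. All 3 are plus strand, 5′ to 3′.

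Hmgcs1: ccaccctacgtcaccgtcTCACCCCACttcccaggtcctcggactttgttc

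Sqle: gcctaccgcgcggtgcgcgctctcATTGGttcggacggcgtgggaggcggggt

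Srebf2: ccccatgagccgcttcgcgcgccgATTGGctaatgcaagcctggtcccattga

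Counted reads per library numbered 18004977 to 66354724. The second of the 2 deposited tables holds nothing but the sgTrp53 + MYC libraries, which were also the deepest, with at least 54042455 reads, while the other 15 had at most 44427184. Reads that htseq-count set aside as ambiguous between genes made up 11.1 to 14.6% of all reads in the sgTrp53 + MYC libraries and 3.03 to 6.30% in the others. Table, depth and group therefore cannot be told apart in any comparison with the sgTrp53 + MYC tumors. Trp53 was at 18.7 to 79.9 CPM (counts scaled to a common library size) in these tumors and at 90.8 to 176 CPM in the other tumors. In livers Trp53 was at 28.8 to 36.4 CPM, inside the range of the sgTrp53 + MYC tumors. Markers of mature hepatocytes, such as Alb and Cps1, added up to 192200 to 242200 CPM in livers, 8792 to 29950 CPM in the tumors with FGF19 or Aldafermin and 4442 to 12760 CPM in sgTrp53 + MYC tumors. The tumor markers Afp, Gpc3, H19 and Mdk together were at 10010 to 25240 CPM in tumors and 3.08 to 46.9 CPM in livers, and 6 proliferation genes at 800.2 to 1346 and 8.03 to 29.9 CPM. Stellate cell markers added up to 27.0 to 126 CPM in tumors and 314 to 443 CPM in livers, macrophage markers to 56.5 to 305 and 286 to 419 CPM, and endothelial markers to 51.9 to 178 and 220 to 357 CPM. Bile duct markers reached 779 CPM in sgTrp53 + MYC replicate 2 and at most 124 CPM elsewhere, and T, B and NK cell markers reached at most 7.16 CPM in any library. In bulk tissue, fewer cells of a type and less RNA per cell cannot be told apart.

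Levels are given below in CPM after TMM scaling, for replicates 1 to 5 in order. Fold changes are on the log2 scale with their standard error (SE), from edgeR's quasi-likelihood test on all 14333 genes that reached 1 CPM in at least 5 libraries. All 7 genes passed this filter, with at least 182 reads in every library, and a gene counted as changed at an adjusted p under 0.05. The 2 tumor groups with an FGF hormone were pooled, as the study did for its pathway analysis, into 10 FGF19/Aldafermin + MYC tumors. Adjusted p-values are Benjamini-Hochberg values over all genes tested.

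Hmgcs1, on chromosome 13 (GRCm39, 120151915 to 120170470), encodes the cytosolic HMG-CoA synthase, an early enzyme of the mevalonate arm. Its level in livers was 412, 211, 252.5, 328 and 226.5 CPM. It was 128, 207, 195, 200.4 and 152 CPM in Aldafermin + MYC tumors, 68.9, 185, 168, 134 and 174 CPM in FGF19 + MYC tumors, and 189, 155, 177, 113 and 240.4 CPM in sgTrp53 + MYC tumors. All 10 tumors with FGF19 or Aldafermin lay below the lowest liver, and sgTrp53 + MYC tumors overlapped the livers through 1 tumor. The log2 fold change against liver was -0.83 (SE 0.21, adjusted p = 0.00172, edgeR) for FGF19/Aldafermin + MYC tumors and -0.71 (SE 0.26, adjusted p = 0.0185) for sgTrp53 + MYC tumors. Between the tumor types it was -0.12 (95% interval -0.58 to 0.33, adjusted p = 0.726).

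Mvd, on chromosome 8 (123160336 to 123170324), encodes mevalonate diphosphate decarboxylase, the step that yields isopentenyl diphosphate. It was the gene with the fewest reads, at 41.7, 17.1, 22.3, 33.3 and 15.8 CPM in livers. It reached 24.3, 31.3, 35.0, 24.8 and 22.8 CPM in Aldafermin + MYC tumors and 10.2, 30.7, 26.1, 17.0 and 25.1 CPM in FGF19 + MYC tumors. In sgTrp53 + MYC tumors it was at 14.9, 15.1, 4.23, 7.48 and 15.6 CPM. These 5 tumors were all below the lowest liver, and FGF19 + MYC replicate 1 was the single hormone tumor within their range. Against liver the log2 fold change was -1.18 (SE 0.36, adjusted p = 0.00610, edgeR) in sgTrp53 + MYC tumors and -0.08 (SE 0.30, adjusted p = 0.819) in FGF19/Aldafermin + MYC tumors. The difference between the tumor types was 1.10 (SE 0.32, adjusted p = 0.0174).

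Sqle, on chromosome 15 (59186869 to 59203043), encodes squalene epoxidase, which adds the first oxygen on the way to the sterol rings and is a rate-limiting step. Its level in livers was 93.9, 50.3, 69.9, 78.9 and 46.9 CPM. It was 101, 107, 124, 102 and 94.9 CPM in Aldafermin + MYC tumors, 64.6, 118, 113, 96.6 and 98.6 CPM in FGF19 + MYC tumors, and 62.8, 71.2, 30.2, 52.8 and 79.5 CPM in sgTrp53 + MYC tumors. Of the 10 tumors with FGF19 or Aldafermin, 9 were above every liver and every sgTrp53 + MYC tumor, the exception being FGF19 + MYC replicate 1. Sqle was the enzyme of the 6 that was higher in these tumors than in liver, by 0.58 (SE 0.20, adjusted p = 0.0146, edgeR). The adjusted p became 0.0566 and 0.0591 without liver replicate 2 or 5. Against sgTrp53 + MYC tumors the log2 fold change was 0.78 (SE 0.21, adjusted p = 0.0102). Between sgTrp53 + MYC tumors and liver it was -0.20 (SE 0.23, adjusted p = 0.458).

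Lss, on chromosome 10 (76367298 to 76392976), encodes lanosterol synthase, which folds oxidised squalene into the first sterol. Livers had 105, 73.4, 78.9, 100.1 and 63.1 CPM. Aldafermin + MYC tumors had 85.7, 129, 97.8, 90.4 and 75.2 CPM, FGF19 + MYC tumors 38.5, 117, 116, 75.4 and 84.4 CPM, and sgTrp53 + MYC tumors 35.4, 46.0, 44.4, 62.1 and 69.7 CPM. Every sgTrp53 + MYC tumor was below all hormone tumors but 1, FGF19 + MYC replicate 1, and 4 of the 5 were below the lowest liver. The log2 fold change was 0.11 (SE 0.22, adjusted p = 0.660, edgeR) in FGF19/Aldafermin + MYC tumors against liver. It was -0.71 (SE 0.25, adjusted p = 0.0183) in sgTrp53 + MYC tumors against liver. The tumor types differed by 0.82 (SE 0.23, adjusted p = 0.0137).

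Cyp51, on chromosome 5 (4123416 to 4154751, minus strand), encodes lanosterol 14-alpha demethylase, the target of azole drugs in fungi. It was at 247, 130, 172, 202 and 126 CPM in livers. It was at 92.0, 93.2, 110, 93.3 and 102 CPM in Aldafermin + MYC tumors, 38.5, 91.8, 88.2, 73.2 and 99.1 CPM in FGF19 + MYC tumors, and 95.1, 72.1, 32.9, 43.7 and 55.7 CPM in sgTrp53 + MYC tumors. Cyp51 was the single gene of the 7 for which all 15 tumors lay below all 5 livers. Against liver it fell by 1.00 on the log2 scale (SE 0.23, adjusted p = 0.000525, edgeR) in FGF19/Aldafermin + MYC tumors and by 1.55 (SE 0.27, adjusted p = 5.13e-05) in sgTrp53 + MYC tumors. The tumor types differed by 0.55 (95% interval 0.05 to 1.04), which missed the threshold with an adjusted p of 0.102 in edgeR. Without FGF19 + MYC replicate 1 that adjusted p was 0.0355, and without sgTrp53 + MYC replicate 1 it was 0.0226. Of the exon bases of Cyp51, 28.6% overlap genes on the other strand, among them Akap9. The libraries were stranded, and the strand setting of the counting is not given in the sources used here. Counting without regard to strand would set reads in such overlaps aside as ambiguous, which would lower the count of Cyp51. Reads set aside as ambiguous were 11.1 to 14.6% in sgTrp53 + MYC libraries and 3.03 to 6.30% in the others. Their part in the differences between groups was not tested, for Cyp51 or the other genes.

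Dhcr7, on chromosome 7 (143376740 to 143402149), encodes the reductase of the last step to cholesterol. Livers had 175, 134, 139, 199.7 and 115 CPM. Aldafermin + MYC tumors had 189, 188, 185, 155 and 154 CPM, FGF19 + MYC tumors 70.7, 169, 183, 138.5 and 156 CPM, and sgTrp53 + MYC tumors 69.3, 64.1, 71.6, 90.9 and 97.9 CPM. All 5 sgTrp53 + MYC tumors were below every liver and below 9 of the 10 hormone tumors. Dhcr7 had the smallest adjusted p of the 7 between the tumor types, at a log2 fold change of 1.00 (SE 0.19, adjusted p = 0.000964, edgeR). Against liver it was 0.05 (SE 0.18, adjusted p = 0.806) in FGF19/Aldafermin + MYC tumors and -0.95 (SE 0.21, adjusted p = 0.000506) in sgTrp53 + MYC tumors. None of its exon bases overlaps a gene on the other strand, while for the other 6 genes the share is 6.11 to 28.6%.

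Srebf2, on chromosome 15 (82031382 to 82093201), encodes SREBP-2 itself, and its mRNA level does not tell how much of the protein is cleaved and active. Livers had 137, 107, 106, 109 and 85.4 CPM, the lowest of the 4 groups. Aldafermin + MYC tumors had 236, 220.5, 267, 163 and 149 CPM, all above the highest liver, and FGF19 + MYC tumors had 129, 217, 220.5, 182.5 and 201 CPM, all but replicate 1 above it. In sgTrp53 + MYC tumors the level was 84.4, 179, 124.5, 193 and 174 CPM, where 3 of the 5 were above the highest liver, 1 within the range of the livers and 1 below it. The log2 fold change against liver was 0.87 (SE 0.20, adjusted p = 0.000569, edgeR) in FGF19/Aldafermin + MYC tumors and 0.47 (SE 0.22, adjusted p = 0.0613) in sgTrp53 + MYC tumors. The second value passed the threshold in several other fits, with an adjusted p of 0.0317 when only these 2 groups were modelled. The tumor types differed by 0.40 (95% interval -0.01 to 0.80, adjusted p = 0.145).

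**Figure D1:**
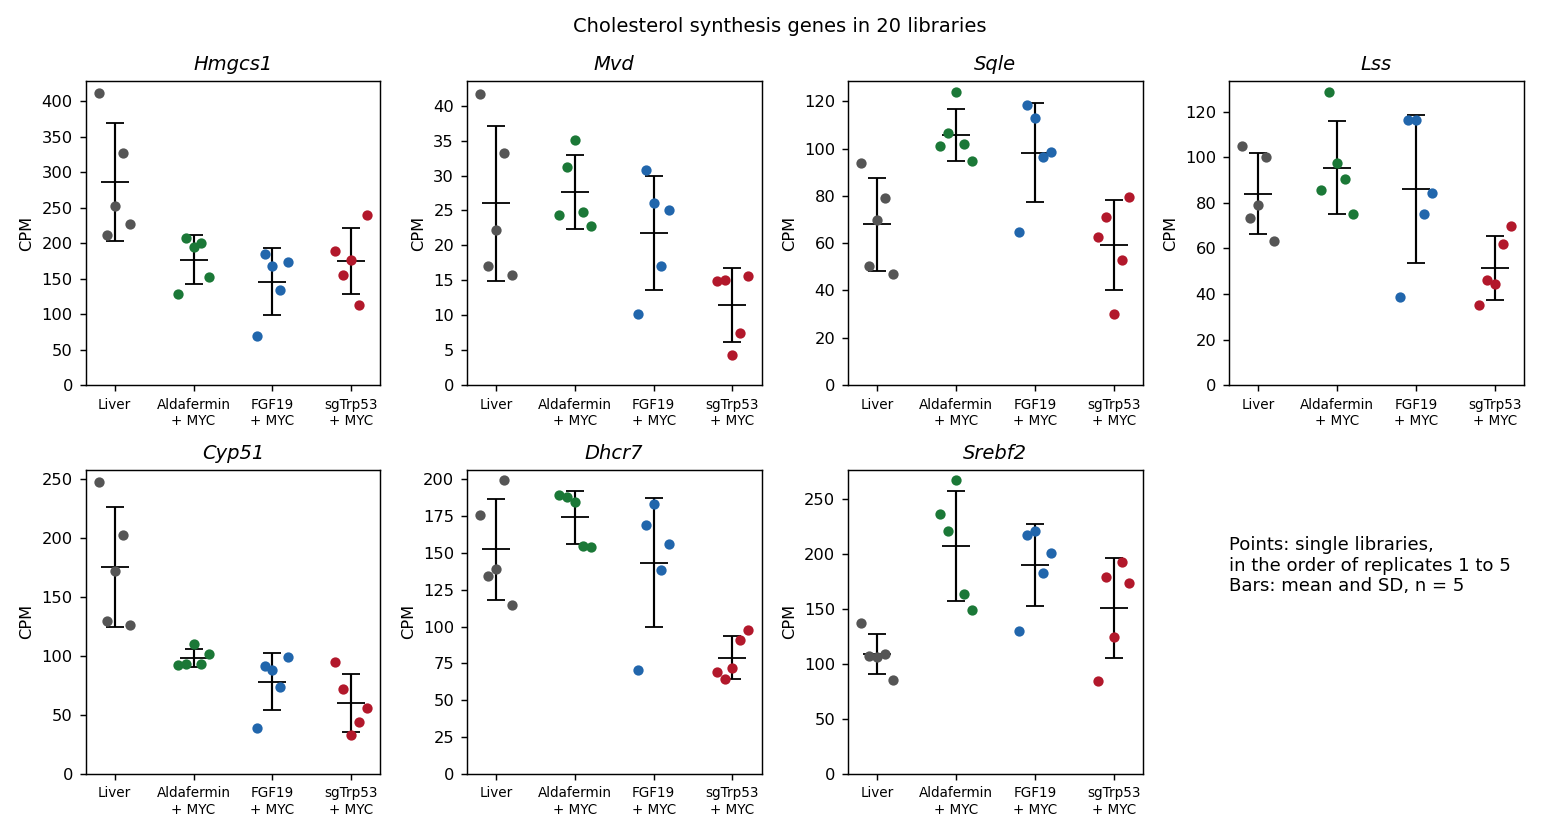
CPM of each of the 7 genes (linear axes from 0) in livers and in the 3 tumor groups. Points are single libraries and bars the mean and SD of 5. Cyp51 lies below the liver range in all 15 tumors, Dhcr7 in all 5 sgTrp53 + MYC tumors, and FGF19 + MYC replicate 1 is the lowest of its group in every panel.

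The first comparison asks how tumors driven by FGF19 or Aldafermin with MYC differ from liver. In these tumors the 7 genes did not move one way: Sqle and Srebf2 rose, Hmgcs1 and Cyp51 fell, and Mvd, Lss and Dhcr7 did not pass the test. So 4 of 7 genes changed, 2 in each direction, where 73.7% of all genes tested changed (39.2% higher and 34.5% lower). The median log2 fold change of the 7 was 0.05, and that of all genes tested was 0.10. The same 4 genes changed in the same directions when either tumor group was set against liver on its own, where 70.3% of all genes changed with Aldafermin (38.4% higher and 31.9% lower) and 69.7% with FGF19 (36.9% higher and 32.9% lower). The 7 genes summed to a median of 840.2 CPM in livers, 857 CPM in Aldafermin + MYC tumors and 837 CPM in FGF19 + MYC tumors.

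In sgTrp53 + MYC tumors against liver, 5 of 7 genes fell (Hmgcs1, Mvd, Lss, Cyp51 and Dhcr7) and 0 rose, where 69.9% of all genes tested changed, 33.0% lower and 36.9% higher. Sqle and Srebf2 did not pass the test. The median log2 fold change of the 7 was -0.71 and that of all genes tested 0.07. The summed level had a median of 563 CPM, with a range of 485 to 732 CPM against 678 to 1212 CPM in livers. Hmgcs1 and Lss lost their call when low genes were kept in the model (adjusted p = 0.179 and 0.183, edgeR), a setting that raised the median of the 14333 genes from 0.07 to 0.36. Hmgcs1 also lost it without liver replicate 1 (adjusted p = 0.0635) or sgTrp53 + MYC replicate 4 (adjusted p = 0.0540).

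The direct comparison of the tumor types tests whether the change from liver differs between them, since both share the same livers. 4 genes were higher in FGF19/Aldafermin + MYC tumors (Mvd, Sqle, Lss and Dhcr7), by 0.78 to 1.10 on the log2 scale, and 0 were lower. These 4 of 7 stand beside 23.7% of all genes tested, 11.6% higher and 12.1% lower. Hmgcs1, Cyp51 and Srebf2 did not pass the test. With FGF19 + MYC tumors alone 2 genes were higher (Dhcr7 and Sqle), beside 15.8% of all genes, 7.97% higher and 7.78% lower. With Aldafermin + MYC tumors alone 4 were higher (Mvd, Sqle, Lss and Dhcr7), beside 17.7% of all genes, 10.2% higher and 7.53% lower. Mvd also missed the threshold when GC content and exon length were modelled (adjusted p = 0.0585), and Cyp51 then passed it (adjusted p = 0.0455). Between the same groups 2 of 10 hepatocyte markers were higher and 1 lower, 3 of 4 tumor markers were higher and 0 lower, 4 of 6 macrophage markers were higher, 4 of 5 bile duct markers were lower, and 0 of 6 stellate, endothelial or proliferation markers changed. The tumor markers had a median log2 difference of 1.27. The part of cell makeup in the 4 differences was not tested.

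**Figure D2:**
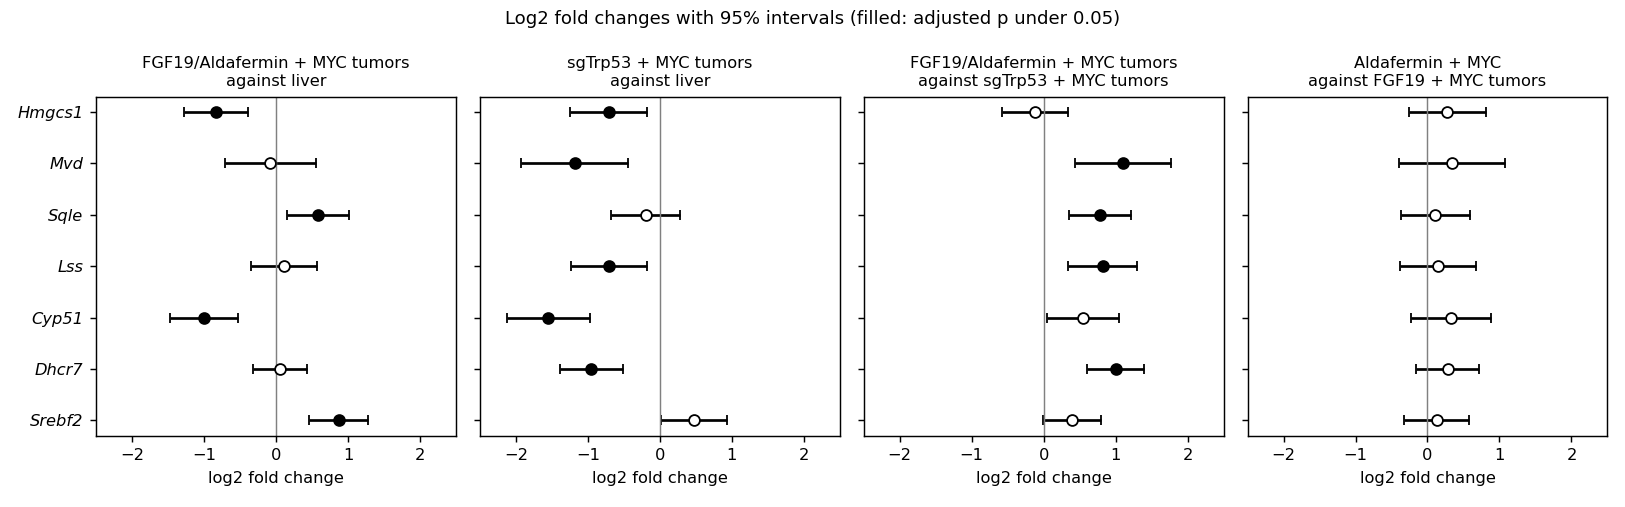
Log2 fold changes of the 7 genes in 4 comparisons, with 95% intervals. Filled points passed an adjusted p of 0.05 over 14333 genes. In the comparison of the tumor types 4 genes are filled, all above 0, and between Aldafermin + MYC and FGF19 + MYC every interval spans 0.

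Aldafermin and the parent hormone gave no call. Against FGF19 + MYC tumors, 0 of 7 genes and 0 of 14333 genes changed in Aldafermin + MYC tumors by edgeR's quasi-likelihood test (0.0% of all genes). At an unadjusted p under 0.05 there were 0 of the 7 and 1048 of all genes, and 0 of the 7 were called by DESeq2 or by the likelihood ratio test, which called 96 and 59 genes. The 7 estimates lay between 0.11 and 0.34 on the log2 scale, all above 0. The 95% interval was -0.37 to 0.59 for Sqle, -0.16 to 0.72 for Dhcr7 and -0.39 to 1.07 for Mvd, so that a log2 difference of 1 was outside the interval for Sqle and Dhcr7 and inside it for Mvd. Without FGF19 + MYC replicate 1 the estimates for Sqle and Lss were -0.01 and -0.04.

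FGF19 + MYC replicate 1 had the lowest level of its group for all 7 genes, on average 0.86 below the group mean in log2 CPM. Its 7 genes summed to 421 CPM, against 717 to 928 CPM in the other 4 tumors of the group. It was also the library with the fewest counted reads (18004977) and the largest share of unaligned reads (34.0%). Taken gene by gene, no library stood apart by Dixon's test in any of 28 sets of 5 values. Over all genes, counts of FGF19 + MYC replicate 1 differed more from the other 4 tumors than those did among themselves. The chi-square per degree of freedom between 2 libraries was 179 to 241 with this replicate and 13.9 to 92.9 without it. Without this library the changes against liver kept 4 calls, with -0.74 for Hmgcs1, -0.91 for Cyp51, 0.65 for Sqle and 0.93 for Srebf2 (adjusted p = 0.00132, 0.000502, 0.00649 and 0.000244, edgeR). Against sgTrp53 + MYC tumors 5 genes were then called, Cyp51 being the added one, and Dhcr7 reached 1.09 (adjusted p = 6.86e-05). Its hepatocyte (9664 CPM), endothelial (75.9 CPM), macrophage (114 CPM), stellate (29.1 CPM) and bile duct (2.12 CPM) markers were the lowest of its group, though inside the range of the 10 FGF19/Aldafermin + MYC tumors. Its tumor markers, at 17610 CPM, were not the lowest. The part of these markers in its low values was not tested.

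Over all libraries the 7 genes tended to move together, least so among the sgTrp53 + MYC tumors. After removal of the group means, all 21 pairs of genes had a positive Pearson correlation over the 20 libraries, with a median r of 0.63 (range 0.21 to 0.96). These values describe libraries in which all genes share the depth and the scaling, and they carry no test. Within groups the median r was 0.97 in FGF19 + MYC tumors, 0.92 in livers, 0.56 in Aldafermin + MYC tumors and 0.24 in sgTrp53 + MYC tumors, each over 5 libraries. In the same order, 21, 21, 18 and 15 of the 21 pairs were positive. The value in FGF19 + MYC tumors includes replicate 1, the lowest of its group for all 7 genes. Among livers, replicate 1 was the highest for 6 genes and replicate 5 the lowest for 6. In the sgTrp53 + MYC tumors, Mvd, Sqle and Cyp51 went together (r between 0.73 and 0.96), and Lss went with Dhcr7 (r = 0.88). Cyp51 and Lss had an r of -0.43 there. Srebf2 was the gene least like the others, with a median r of 0.48 over all libraries.

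**Figure D3:**
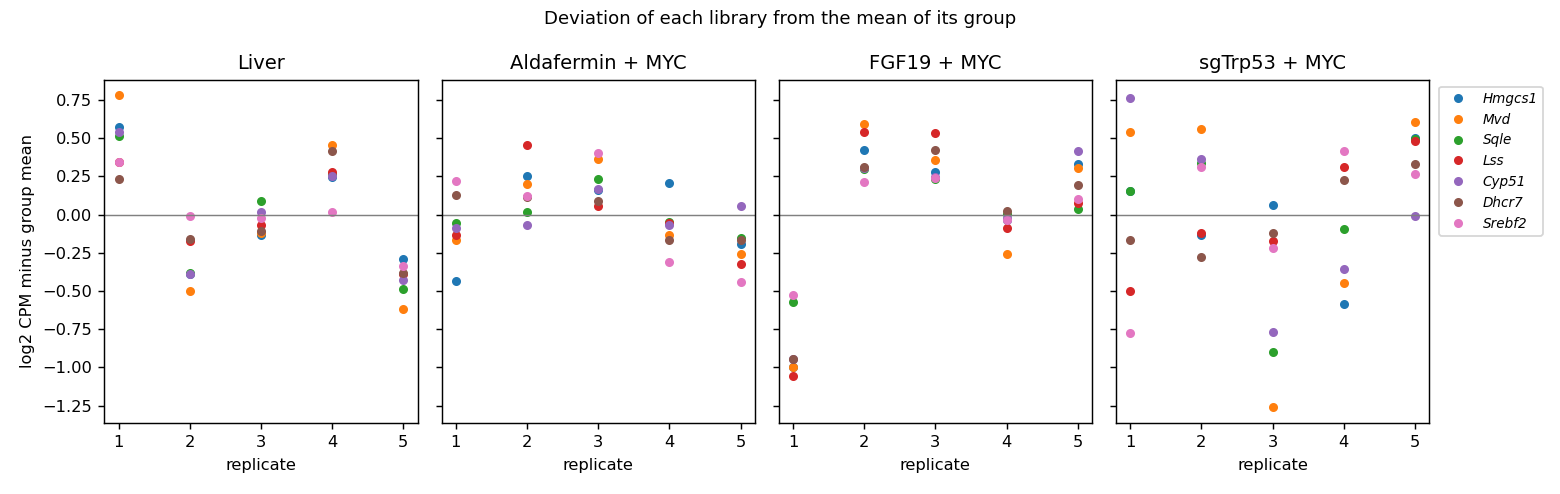
Deviation of each library from the mean of its group in log2 CPM, for the 7 genes (colors) and the 5 replicates of each group. In livers and FGF19 + MYC tumors the 7 points of a library lie close to each other, while in sgTrp53 + MYC tumors they spread from below to above 0 in several libraries.

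Outside the 7, the genes most like their mean were sought among 9386 genes with at least 10 CPM. Among the 5 most similar were Fdps (r = 0.90), Nsdhl (0.86) and Gm3571 (0.84), against a median r of 0.07 over all candidates. The likeness did not hold in every group. Within Aldafermin + MYC tumors alone r was 0.35 for Fdps, -0.09 for Nsdhl and -0.04 for Gm3571. Within each of the other groups it was between 0.70 and 0.999 for these genes. Fdps makes farnesyl diphosphate, Nsdhl acts after lanosterol, and Gm3571 is annotated as a transcribed processed pseudogene, whose reads may come from its parent. Acat2, Mvk and Fdft1 were at places 14, 20 and 26. Other enzymes of the pathway were far down, such as Idi1 at place 1691 and Ebp at place 4003.

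Per kilobase of canonical transcript, which allows genes to be compared, Hmgcs1 was the highest of the 7 in livers at a mean of 69.8 CPM per kilobase, followed by Dhcr7 at 51.6 and Cyp51 at 35.3. In Aldafermin + MYC and FGF19 + MYC tumors Dhcr7 came first, at 58.9 and 48.5. In sgTrp53 + MYC tumors Hmgcs1 was first at 42.7 and Dhcr7 was behind Srebf2 at 26.7. Srebf2 was at 21.4 in livers, behind 4 of the enzymes, and at 40.8, 37.4 and 29.7 in the 3 tumor groups, behind 1 or 2 of them. Lss and Mvd held the last places in each group, between 5.97 and 15.0 CPM per kilobase.

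Of 12 other enzymes of the pathway, most were lower in tumors than in liver. In FGF19/Aldafermin + MYC tumors 8 of 12 fell and 0 rose, with a median of -1.07, where 34.5% of all genes tested were lower and 39.2% higher. In sgTrp53 + MYC tumors 9 fell and 1 rose, with a median of -1.58, where 33.0% of all genes were lower and 36.9% higher. The enzymes after lanosterol among them fell in both, 6 of 6. Tm7sf2, a sterol reductase, was at 197 to 305 CPM in livers, 16.5 to 32.7 CPM in Aldafermin + MYC, 8.25 to 33.0 CPM in FGF19 + MYC and 6.54 to 15.5 CPM in sgTrp53 + MYC tumors, a log2 fold change of -3.66 (SE 0.28) and -4.84 (SE 0.38) for the 2 tumor types. Sc5d, the sterol desaturase, was at -3.02 and -2.95, and Ebp, the sterol isomerase, at -2.83 and -3.06. Hsd17b7 was at -1.35 and -1.61, Msmo1, the methyl oxidase, at -1.09 and -1.50, and Nsdhl at -0.97 and -1.83. In the mevalonate arm Pmvk was at -1.33 and -1.54 and Fdps at -1.06 and -2.21. Mvk fell in sgTrp53 + MYC tumors alone (-0.76, against 0.13 in the other type), and Fdft1, the squalene synthase, was the enzyme that rose there (0.57). Of the exon bases of Fdft1, 34.1% overlap Ctsb on the other strand, so some of its reads may have been set aside as ambiguous. Acat2 (0.03 and -0.33) and Idi1 (-0.10 and 0.56) did not pass the test in either type.

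**Figure D4:**
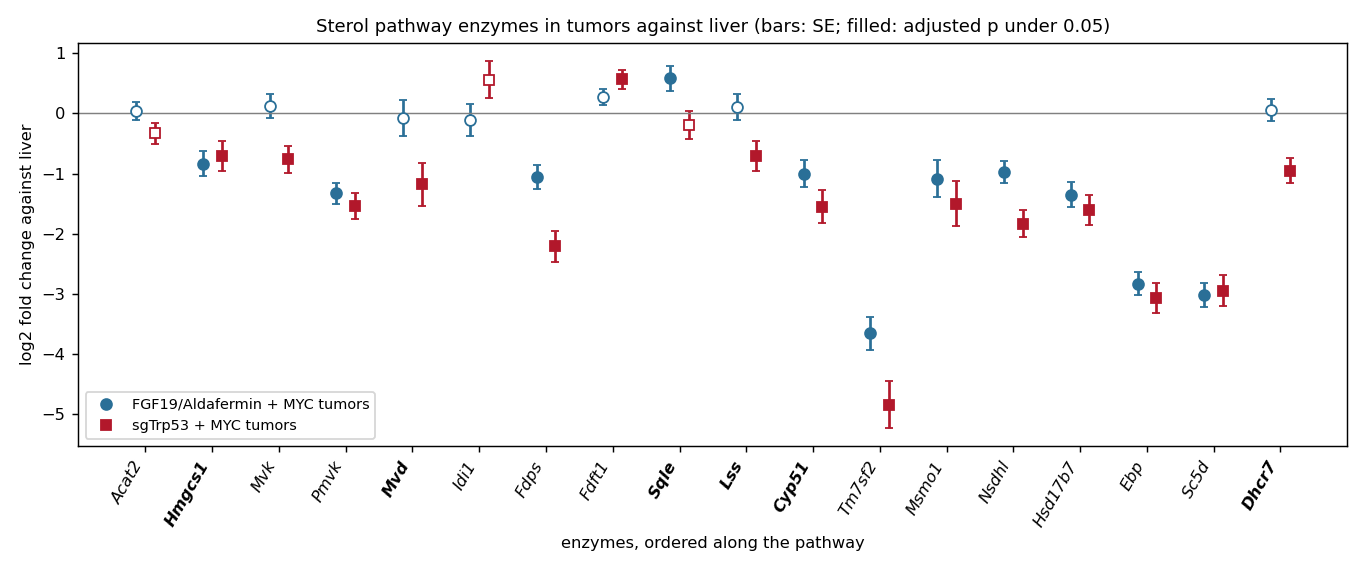
Log2 fold changes against liver of 18 pathway enzymes, with SE, in FGF19/Aldafermin + MYC tumors (circles) and sgTrp53 + MYC tumors (squares). The order follows the pathway, the 6 enzymes described in detail are in bold, and filled symbols passed an adjusted p of 0.05. The deepest falls, at Tm7sf2, Ebp and Sc5d, are among the steps after lanosterol.

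Between the tumor types, 4 of the 12 were higher in FGF19/Aldafermin + MYC tumors and 0 lower, beside 11.6% higher and 12.1% lower among all genes, or 23.7% called in all. They were Tm7sf2 (1.18, SE 0.30), Fdps (1.15, SE 0.22), Mvk (0.89, SE 0.20) and Nsdhl (0.86, SE 0.19). For Fdps the level was 131 to 172 CPM in Aldafermin + MYC tumors, 55.4 to 180 CPM in FGF19 + MYC tumors and 44.8 to 84.8 CPM in sgTrp53 + MYC tumors. The ranges overlapped through FGF19 + MYC replicate 1. Aldafermin + MYC and FGF19 + MYC tumors differed in 0 of the 12.

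Of 6 genes that control SREBP processing, 4 fell and 1 rose against liver in both tumor types. Of all genes tested, 73.7% and 69.9% were called in either direction, 34.5% and 33.0% lower and 39.2% and 36.9% higher. No set test was run on these counts. Scap, the escort, fell by 1.06 and 1.98 on the log2 scale in FGF19/Aldafermin + MYC and sgTrp53 + MYC tumors, and it was 0.92 (SE 0.20) higher in the first. Insig2, which retains SCAP, was at -3.33 and -3.42, and Srebf1, which mainly serves fatty acid synthesis, at -1.92 and -2.38. Mbtps2, the site-2 protease, rose by 1.94 and 2.13. It stood at 8.81 to 13.6 CPM in livers and 33.1 to 62.1 CPM in the 15 tumors, with no overlap.

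Among 7 genes of sterol uptake and transport, 4 fell in FGF19/Aldafermin + MYC tumors and 6 in sgTrp53 + MYC tumors, and 0 rose, where 34.5% and 33.0% of all genes tested were lower. Lrp1, a remnant lipoprotein receptor, was at 812 to 1180 CPM in livers and at 47.6 to 299 CPM in tumors (-2.44 and -3.75). Lipa, the lysosomal acid lipase, was at -1.57 and -1.87. Lrp1 and Scarb1, the HDL receptor, were higher in FGF19/Aldafermin + MYC than in sgTrp53 + MYC tumors, by 1.31 (SE 0.31) and 0.70 (SE 0.17). Of 9 genes of efflux and storage, 6 and 7 fell and 2 and 1 rose in the 2 tumor types. Beside them stand the same 73.7% and 69.9% of all genes called in either direction, 34.5% and 33.0% lower and 39.2% and 36.9% higher. Soat2, an enzyme that esterifies cholesterol in hepatocytes, differed between the tumor types by 1.61 (SE 0.19, adjusted p = 1.79e-05, edgeR), at -0.13 and -1.75 against liver. Its paralog Soat1 rose against liver in both types, by 3.54 (SE 0.50) and 2.49 (SE 0.51). In sgTrp53 + MYC tumors Soat1 was at 9.49 to 59.4 CPM and Soat2 at 19.4 to 47.3 CPM. The exporters Abcg5 and Abcg8 were at -2.98 and -2.67, and at -3.05 and -2.61. Abca1, which loads cholesterol onto HDL, and the liver X receptor gene Nr1h2 were higher in FGF19/Aldafermin + MYC than in sgTrp53 + MYC tumors, by 1.08 (SE 0.27) and 0.41 (SE 0.13). Against liver both genes were lower in the 2 tumor types, Abca1 at -0.84 and -1.92 and Nr1h2 at -0.92 and -1.33. In the branches that leave the pathway for isoprenoids, 2 and 3 of 4 genes rose and 0 fell, where 39.2% and 36.9% of all genes were higher. They were led by Pdss1 (4.36 and 4.55) and Pdss2 (1.04 and 0.93), both of the synthesis of ubiquinone. Pdss1 was at 1.65 to 2.56 CPM in livers (23 to 58 reads), near the filter of 1 CPM, and at 30.6 to 57.0 CPM in tumors. Ggps1, the synthase of geranylgeranyl diphosphate, rose in sgTrp53 + MYC tumors (0.66), was at 0.24 without passing the test in the other type, and was the gene of these 4 that was lower in FGF19/Aldafermin + MYC than in sgTrp53 + MYC tumors (-0.42, SE 0.12).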

How the data were processed

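The authors prepared stranded mRNA libraries, aligned the reads with HISAT2 to mouse build mm39 and counted them per gene with htseq-count on NCBI RefSeq gene models. The deposited values are these raw counts, as whole numbers without normalization, in 2 tables with 50559 gene rows and 5 summary lines each. The summary lines, 33.7 to 56.2% of the reads, were left out of library sizes, and 0 columns were left unused. Samples were grouped by title, and no library was a copy of another.

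Here counts were scaled by TMM and tested with edgeR 4.0.16 (R 4.3.3), by the quasi-likelihood test with all 4 groups in 1 model, on the 14333 genes with at least 1 CPM in 5 libraries. Adjusted p-values are two-sided Benjamini-Hochberg values at a threshold of 0.05. The script was tested on simulated counts. The 7 genes and the gene lists were chosen with earlier results of these data known, and some genes of the pathway are not reported here. Named besides the 7 were 12 other pathway enzymes, up to 3 genes with the smallest adjusted p per other list and comparison (1 uptake gene that meets this is not named), and the genes most correlated with the mean of the 7. Soat1 was named in addition, as the paralog of Soat2. Alternatives were DESeq2 1.42.0, the likelihood ratio test, RLE and upper quartile factors, no filter, fewer groups, either hormone group alone, a replicate block, offsets for GC content and exon length, and each library left out. Gene positions, transcript lengths and promoters came from GENCODE gene models on GRCm39. The study describes the tumors as taken from separate mice and its replicates as biological. Separate mice are not named for the livers, and p-values measure the spread between samples.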

Additional observations from a re-analysis of the deposited data

Results flagged for a closer look

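The change from liver differed between FGF19/Aldafermin + MYC and sgTrp53 + MYC tumors for 4 of the 7 genes, by the test of the difference itself in edgeR. The difference in log2 fold change was 1.10 for Mvd (adjusted p = 0.0174), 1.00 for Dhcr7 (adjusted p = 0.000964), 0.82 for Lss (adjusted p = 0.0137) and 0.78 for Sqle (adjusted p = 0.0102), each higher with the hormone. The sgTrp53 + MYC libraries are alone in their table, so table and group cannot be told apart. No single library stood apart in the 28 sets of 5 values examined, where about 5% would be expected to by chance.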

How the results depend on the processing

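Over all alternatives 812 fold changes of the 7 genes were recomputed, of which 792 kept their direction or their lack of a call, 9 lost the call, 11 gained one and 0 reversed. In FGF19/Aldafermin + MYC against sgTrp53 + MYC tumors, 2 of the 7 were called with FGF19 + MYC tumors alone in place of 4. In Aldafermin + MYC against FGF19 + MYC tumors, 96 of all genes were called by DESeq2, 59 by the likelihood ratio test, 2 with RLE size factors and 0 to 29 when 1 library was left out, in place of 0, and 0 of the 7 in each. Leaving out 1 library gave 3 to 4 calls among the 7 for FGF19/Aldafermin + MYC against liver, 4 to 6 for sgTrp53 + MYC against liver, 4 to 5 between the tumor types and 0 between Aldafermin and FGF19. Without a filter, the higher and lower calls between the tumor types were 1260 and 2546 in place of 1663 and 1736, and the median of the 14333 genes moved from -0.02 to -0.13, while the same 4 of the 7 were called. That setting also moved the median against liver from 0.10 to 0.27 in FGF19/Aldafermin + MYC and from 0.07 to 0.36 in sgTrp53 + MYC tumors. Srebf2 in sgTrp53 + MYC tumors against liver was called without a filter, with GC and length offsets, with only these groups and without Aldafermin + MYC replicate 5, FGF19 + MYC replicate 1, liver replicate 1 or sgTrp53 + MYC replicate 1 or 3, with an adjusted p of 0.000417 to 0.0488 in edgeR. The causes were not tested. Replicate numbers do not pair the samples: same-numbered libraries of different groups had correlated deviations of r from -0.33 to 0.33, with a mean of -0.02. A model with the replicate number as a block called 4, 5, 4 and 0 of the 7 and 10544, 9981, 3120 and 0 of all genes in the 4 comparisons.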
